A study of Rattus norvegicus with 12 samples.

Results

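The sorbitol and inositol branches of osmolyte accumulation, together with the transcription factor Nfat5, were followed in inner medullary collecting duct (IMCD) cells of the rat kidney in primary culture. The 7 genes were chosen by name as Nfat5 and the enzymes and transporter that make, take up or recycle sorbitol and myo-inositol. They were Nfat5, Akr1b1, Sord, Slc5a3, Isyna1, Impa1 and Impa2, and all 7 were among the 14506 named genes of the array. The brightest probe set by mean level stood for each gene, and no filter on low values was applied.

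The 12 arrays fell into 4 groups of 3: 300 mOsm/KgH2O for 24 h, 640 for 24 h, 300 for 48 h and 640 for 48 h. Every culture came from kidneys of male SD rats aged 7 weeks and had first spent 4 days at 640 mOsm/KgH2O, so the 640 groups had continuous hyperosmolar culture and the 300 groups a step down. No sample from before the step was analysed here. Whether replicates were separate animals or separate dishes is not stated in the labels, and the p-values cover only their spread, which may be technical. Total RNA was hybridised to Affymetrix Rat Gene 1.0 ST arrays, whose number limits the precision.

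Cells of the inner medulla face an interstitium of high and changing osmolality and balance it with organic osmolytes, small solutes that do not disturb proteins. Sorbitol is made from glucose by aldose reductase (Akr1b1) and oxidised to fructose by sorbitol dehydrogenase (Sord). Myo-inositol is carried in with sodium by Slc5a3, also called SMIT, or made in the cell by inositol-3-phosphate synthase (Isyna1) and inositol monophosphatase (Impa1 and Impa2). Nfat5, also called TonEBP, is the transcription factor known for inducing Akr1b1 and Slc5a3 in hyperosmolar medium. Its activity is known to be set by its location and modification as well as by its amount, and arrays of RNA see only the transcript.

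At 48 h transcripts of the sorbitol-making enzyme Akr1b1 and of the myo-inositol carrier Slc5a3 were lower at 300 than at 640 mOsm. Transcripts of the other genes, among them Isyna1 on the route that makes myo-inositol, were not called. Of the 7 genes, 2 passed the test (Akr1b1 and Slc5a3), both lower at 300. Called means an adjusted p under 0.05 in limma, a linear model with shared variance, with Benjamini-Hochberg adjustment over all 14506 genes. By that rule 0.545% of all genes were called lower at 48 h and 0.717% in either direction. The 7 were chosen with earlier results of these data known, so these shares are no independent test of them. In whole cultures, fewer cells of a type and less RNA per cell cannot be told apart. Of the 7 genes 5 were lower in value at each time, with a median log2 change of -0.22 at 48 h and -0.21 at 24 h, beside medians of 0.02 and -0.02 over all genes.

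Akr1b1, which makes sorbitol, had log2 levels of 12.08, 11.63 and 12.06 on the 300 mOsm arrays at 48 h, against 13.30, 13.14 and 13.33 on the 640 mOsm arrays. The groups were separated by more than 1 log2 unit, and replicate 2 was the lowest array of both. The level averaged 11.92 ± 0.254 at 300 and 13.26 ± 0.101 at 640 (SD, n = 3 each). Akr1b1 was thus 2.53-fold lower at 300 (log2 change -1.34 ± 0.205 SE, limma adjusted p = 0.0039). The call held in all 16 alternative settings tried at 48 h, and leaving out 1 array at a time gave changes between -1.42 and -1.19.

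At 24 h the same probe set gave 11.79, 11.52 and 12.10 on the 300 mOsm arrays, against 13.08, 12.82 and 12.99 on the 640 mOsm arrays. Again no 300 array reached any 640 array. The change was -1.16 ± 0.205 SE on the log2 scale, or 2.24-fold lower, and it was not called (limma adjusted p = 0.0521, rank 14 of 14506 genes by p). After centring every array on its median the value crossed the threshold (-1.18, adjusted p = 0.0495), and it did so in 6 of 17 alternative settings in all, over which the adjusted p ran from 0.0067 to 0.688. With centring the unadjusted limma p of Akr1b1 was larger, at 3.2e-04 against 5.0e-05, and its rank went from 14 to 94. The adjusted p was smaller because more genes had small p, with 95 genes called in place of 13.

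A separate, dimmer probe set of Akr1b1 gave the same direction and a larger change at each time, so the folds above are those of the brighter set. Its log2 levels at 48 h were 7.95, 8.03 and 8.26 at 300 and 10.09, 9.68 and 9.61 at 640. At 24 h they were 7.52, 7.45 and 8.08 at 300 and 9.42, 8.80 and 9.18 at 640. The groups did not overlap at either time. In a fit that kept every probe set as its own row, this probe set changed by -1.71 ± 0.232 SE at 48 h (limma adjusted p = 0.0019) and by -1.45 ± 0.232 SE at 24 h (adjusted p = 0.0234). The 24 h call was lost in 7 of 15 alternative settings, among them when replicate 1 at 640 (adjusted p = 0.164), replicate 3 at 640 (0.0649), replicate 1 at 300 (0.0520) or replicate 2 at 300 (0.125) was left out, without replicate 1 at 300 and replicate 3 at 640 together (0.117), and in a fit of the 24 h arrays alone (0.662). Akr1b1 has close relatives in its gene family, and whether either probe set also takes up their transcripts was not tested.

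**Figure D1:**
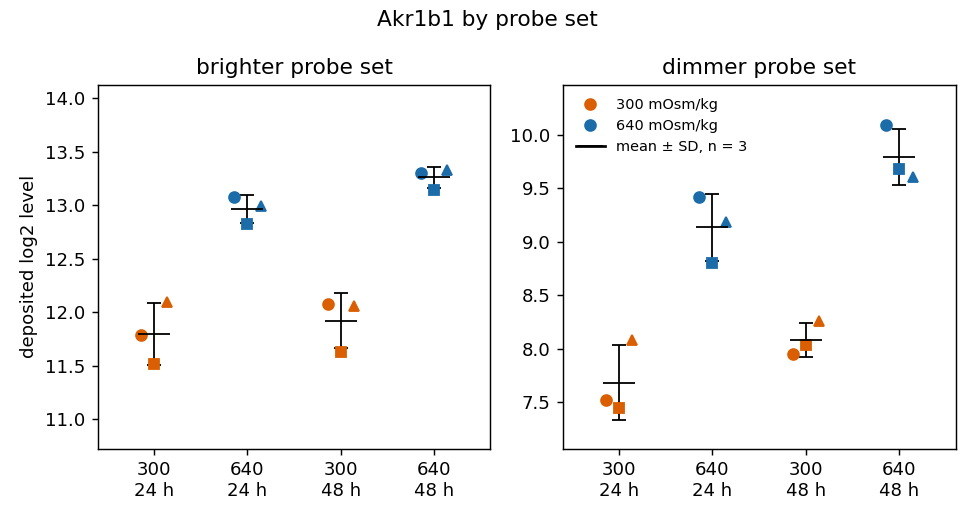
Deposited log2 level of Akr1b1 (y axis) on each array for its brighter probe set (left) and its dimmer probe set (right), by osmolality in mOsm/kg and time (x axis). Points are arrays and bars are the mean ± SD of 3; at 48 h the brighter set lies between 11.63 and 12.08 at 300 and between 13.14 and 13.33 at 640, and the dimmer set shows the same separation. The y axes span the same range but start at different levels.

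Sord, which removes sorbitol, was not called at either time. Its log2 levels were 6.19, 6.07 and 6.18 at 300 and 5.88, 5.98 and 6.15 at 640 after 48 h. The groups overlapped on the deposited values, by a single array of each, and did not on centred arrays. The share of all genes that do not overlap on centred arrays is not given here. The change was 0.14, with a 95% interval from -0.61 to 0.89 (limma adjusted p = 1.00). At 24 h the 300 arrays gave 5.95, 7.11 and 7.04 and the 640 arrays 6.94, 6.99 and 5.60, a change of 0.19 with an interval from -0.56 to 0.95. The low value of each 24 h group came from the array with the low overall median (replicate 1 at 300 and replicate 3 at 640).

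Slc5a3, the sodium-coupled carrier that brings myo-inositol into the cell, had the largest change of the 7 genes. At 48 h its log2 levels were 7.94, 6.87 and 7.22 at 300, against 9.75, 9.71 and 10.21 at 640. The lowest 640 array stood above the highest 300 array by more than the whole range of either group. The means were 7.34 ± 0.546 at 300 and 9.89 ± 0.279 at 640 (SD, n = 3 each). Slc5a3 was thus 5.85-fold lower at 300 (log2 change -2.55 ± 0.367 SE, limma adjusted p = 0.00256). It was called in all 16 alternative settings at 48 h, with changes between -2.85 and -2.31 when 1 array was left out.

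At 24 h Slc5a3 had log2 levels of 7.54, 6.88 and 7.79 at 300, against 9.90, 8.47 and 9.67 at 640. The groups did not overlap, but replicate 2 at 640 stood well below the other 640 arrays. The change was -1.94 ± 0.367 SE, or 3.85-fold lower, and it was not called (limma adjusted p = 0.0770, and 0.0552 on centred arrays). Its unadjusted limma p was larger on centred arrays, at 3.7e-04 against 1.0e-04 on the deposited values. Without replicate 2 at 640 the change was -2.38 and called (adjusted p = 0.0067). It was also called when arrays were weighted by their quality (adjusted p = 0.0053), the lowest of a range that reached 0.846 in a fit of the 24 h arrays alone. In all it was called in 3 of 17 alternative settings.

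In all, limma called 0 of the 7 genes at 24 h, where 0.0896% of all genes were called, 0.0758% as lower. At an unadjusted limma p under 0.05 the count was 2 of 7 (Akr1b1 and Slc5a3), beside 2.90% of all genes. On centred arrays 1 of 7 was called (Akr1b1), beside 0.655% of all genes. Akr1b1 and Slc5a3 were also the genes whose arrays did not overlap at 24 h on the deposited values, which held for 4.27% of all genes in either direction. At 48 h the same pair did not overlap, beside 13.8% of all genes.

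**Figure D2:**
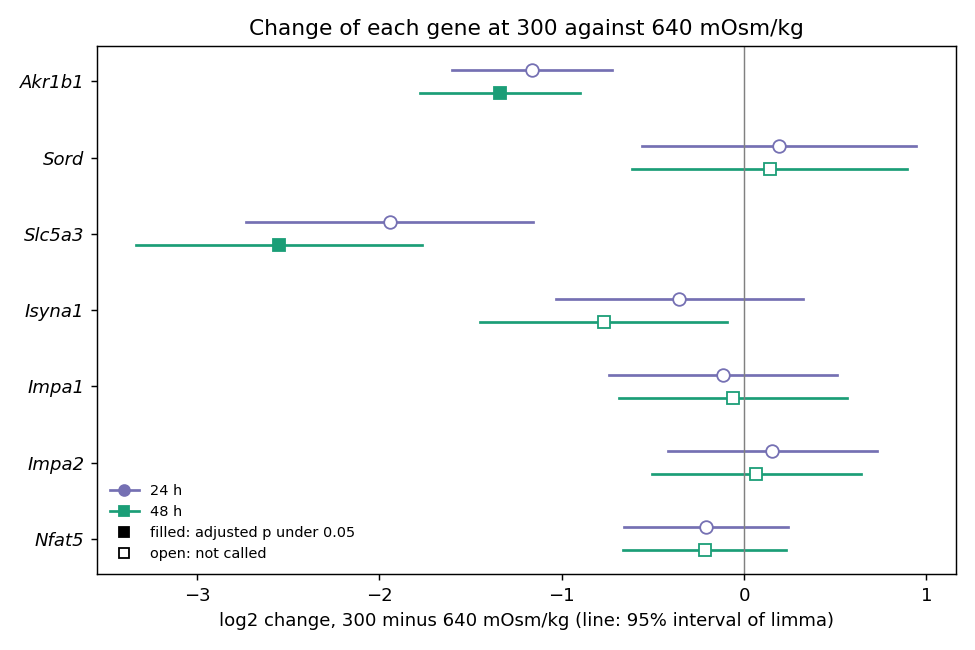
Log2 change of each gene, 300 minus 640 mOsm/kg (x axis), at 24 h and at 48 h, with 95% intervals from limma. At 48 h the filled points of Slc5a3 (-2.55) and Akr1b1 (-1.34) are the calls; the intervals of Sord, Impa1, Impa2 and Nfat5 span 0 at both times, and that of Isyna1 lies below 0 at 48 h (-1.45 to -0.09).

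The promoter of Slc5a3 is shown because it belongs to the gene with the largest change, and that of Impa2, whose transcript was not called, because it holds the longer motif. Both are the 250 bases before the gene's start in RefSeq (GRCr8). The RefSeq model of Slc5a3 spans 2447 bases, and the sources used here do not state whether transcription begins at its start. The RefSeq promoter table lists 4 of the 7 genes, Sord, Slc5a3, Isyna1 and Impa2. The strings searched, on both strands, were GGAAA, the core bound by proteins with a Rel-type domain such as Nfat5, and TGGAAA, which contains it. In the sequences the capitals mark GGAAA for Slc5a3 and TGGAAA for Impa2.
Slc5a3, chr11:44799537-44799786, plus strand: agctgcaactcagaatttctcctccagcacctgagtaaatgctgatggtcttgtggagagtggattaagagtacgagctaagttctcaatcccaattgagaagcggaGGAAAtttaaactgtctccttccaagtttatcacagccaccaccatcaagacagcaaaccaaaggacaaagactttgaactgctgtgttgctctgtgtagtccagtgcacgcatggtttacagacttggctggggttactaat
Impa2, chr18:63103863-63104112, plus strand: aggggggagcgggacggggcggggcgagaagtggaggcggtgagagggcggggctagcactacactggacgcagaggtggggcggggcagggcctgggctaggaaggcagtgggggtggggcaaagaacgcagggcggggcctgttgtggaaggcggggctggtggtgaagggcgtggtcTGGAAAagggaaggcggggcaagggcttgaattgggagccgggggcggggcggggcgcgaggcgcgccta
GGAAA began 143 bases before the gene's start in Slc5a3 and 69 in Impa2, each on the strand of the gene. In Sord it began 138 and in Isyna1 92 bases before the start that the promoter table uses, also on the gene's strand. That start lies inside the RefSeq gene model of both, so the whole window of Sord and the stretch with the match in Isyna1 are within the gene and not before it. All 4 windows thus held it, as did 56.9% of 33469 rat promoter windows of the same length. Of the 4 windows, that of Impa2 alone held TGGAAA, 70 bases before the start, and 19.7% of all windows held it. A match is a description of the letters in the window.

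Isyna1, which makes inositol phosphate from a glucose phosphate, lay between the called and the uncalled genes. Its log2 levels at 48 h were 9.40, 8.98 and 9.91 at 300 and 10.57, 9.76 and 10.27 at 640. Replicate 3 at 300 lay above replicate 2 at 640, and the other arrays kept apart. The change was -0.77 ± 0.317 SE with a 95% interval from -1.45 to -0.09, and it was not called (limma adjusted p = 0.827, and 0.194 on centred arrays). None of the 16 settings called it.

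At 24 h Isyna1 had log2 levels of 9.65, 10.58 and 10.39 at 300 and 10.75, 10.87 and 10.07 at 640. The lowest array of each group was the one with the low overall median. Relative to the array medians the groups did not overlap, at 2.90 ± 0.120 above the median at 300 and 3.26 ± 0.0802 at 640. The share of all genes separated on that scale is not given here. The change was -0.35 ± 0.317 SE (limma adjusted p = 1.00).

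Impa1 and Impa2, the phosphatases that release free myo-inositol, were not called at either time. Impa1 had log2 levels of 10.29, 9.96 and 9.94 at 300 and 10.05, 9.98 and 10.34 at 640 after 48 h. Impa2 had 6.46, 6.14 and 6.43 at 300 and 6.36, 5.96 and 6.51 at 640. The groups overlapped for both, and the changes were -0.06 (95% interval -0.69 to 0.56) for Impa1 and 0.07 (-0.50 to 0.64) for Impa2, each with a limma adjusted p of 1.00. At 24 h Impa1 ranged from 10.15 to 11.09 at 300 and from 10.26 to 11.31 at 640, and Impa2 from 6.67 to 7.59 at 300 and from 6.56 to 7.29 at 640. The changes then were -0.12 for Impa1 and 0.15 for Impa2.

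The transcript of Nfat5 itself was not called at either time. At 48 h its log2 levels were 9.77, 9.26 and 9.61 at 300 and 9.72, 9.55 and 10.02 at 640. At 24 h they were 9.70, 9.85 and 10.09 at 300 and 10.28, 10.05 and 9.92 at 640. The groups overlapped at both times, with means of 9.55 ± 0.262 at 300 and 9.76 ± 0.235 at 640 after 48 h, and of 9.88 ± 0.196 at 300 and 10.09 ± 0.183 at 640 after 24 h (SD, n = 3 each).

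The change of Nfat5 was -0.22 at 48 h (95% interval -0.66 to 0.23) and -0.21 at 24 h (-0.66 to 0.24), with a limma adjusted p of 1.00 at each time. These intervals leave room for a fall of up to 0.66 and lie above the changes measured for Slc5a3 and Akr1b1 at 48 h. None of the alternative settings called Nfat5 at either time.

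**Figure D3:**
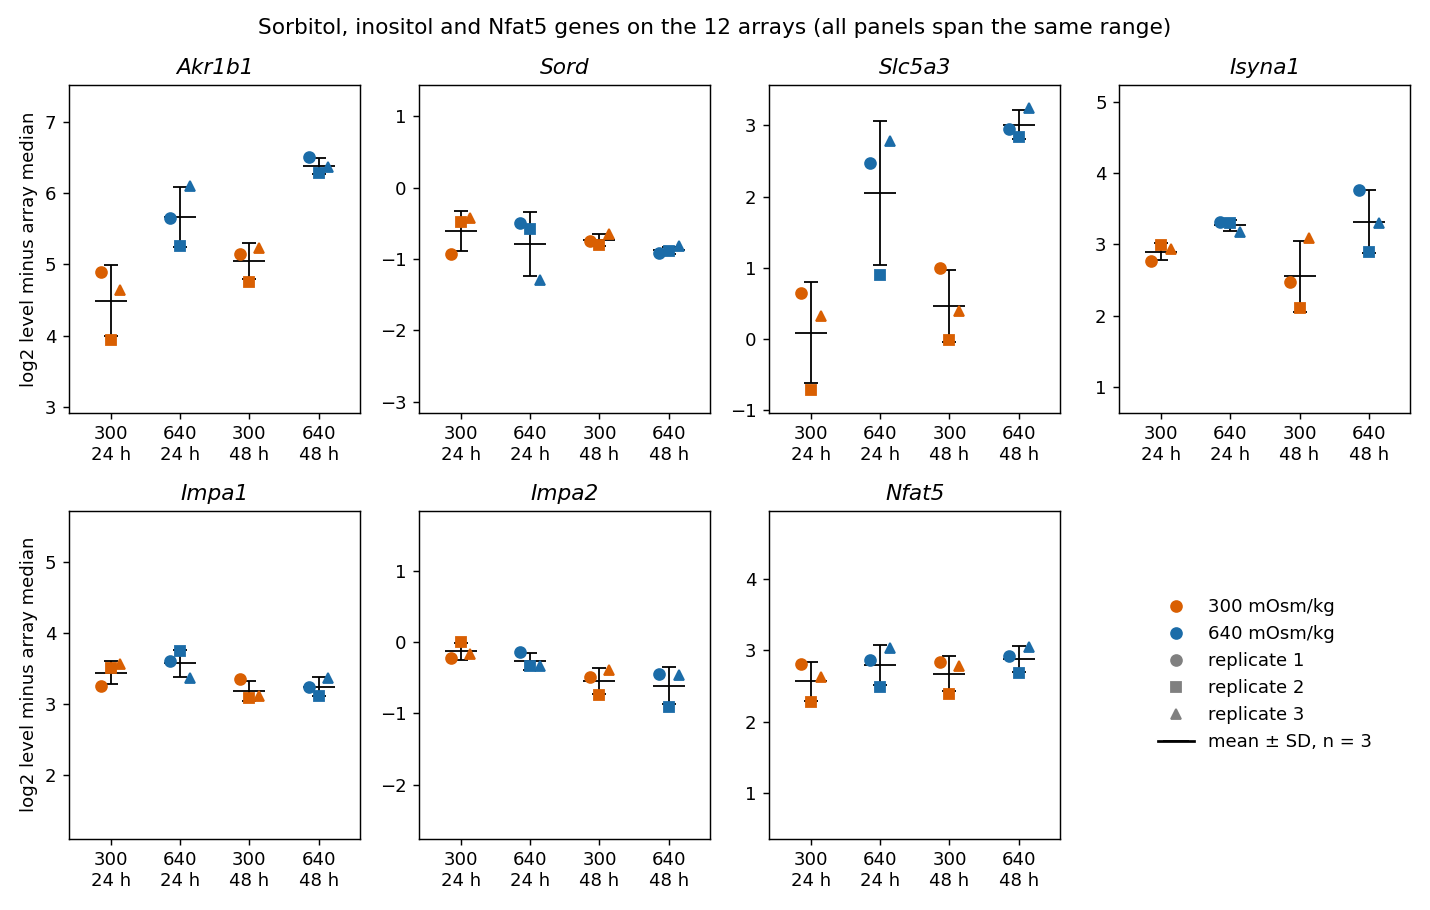
Log2 level of each gene minus the median of its array (y axis; every panel spans the same range) on the 12 arrays, by osmolality in mOsm/kg and time (x axis), with the mean ± SD of 3 arrays. Akr1b1 and Slc5a3 separate 300 from 640 at both times; the mean differences of Sord, Impa1, Impa2 and Nfat5 are smaller.

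The arrays did not share a scale, since the median log2 level over the genes tested was 6.81 to 6.97 at 48 h and 7.43 to 7.58 on 4 of the 6 arrays at 24 h, but 6.89 on replicate 1 at 300 and 6.90 on replicate 3 at 640. The median log2 change of all genes from 24 to 48 h was -0.41 at 640 and -0.38 at 300 on the deposited values, so the order of the groups and the changes over time are given relative to the array medians.

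On that scale the mean levels of Akr1b1 above the array median were 4.49 ± 0.499 at 300 for 24 h, 5.04 ± 0.256 at 300 for 48 h, 5.66 ± 0.423 at 640 for 24 h and 6.38 ± 0.112 at 640 for 48 h (SD, n = 3 each). In that order only the lowest pair of neighbours overlapped. Slc5a3 had the same order, at 0.09 ± 0.708, 0.46 ± 0.508, 2.05 ± 1.01 and 3.01 ± 0.207 above the median. For Slc5a3 only the highest pair of neighbours did not overlap, and replicate 2 at 640 for 24 h reached into the 300 group at 48 h. Nfat5 had this order too, but each group overlapped the next and the means lay between 2.57 and 2.88. Impa2 was ordered by time, with both 24 h groups above both 48 h groups. Sord and Impa1 overlapped at every step, and Isyna1 at each but the one between the 300 and 640 groups at 24 h. How many of all genes overlap at such steps is not given here.

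For the later against the earlier time at 640, limma called 0 of 7 genes, beside 0.138% of all genes. Beside 6.58% of all genes, 2 of the 7 had an unadjusted limma p under 0.05. These were Akr1b1, with a centred log2 change of 0.71 (limma adjusted p = 0.545), and Slc5a3 with 0.96 (adjusted p = 0.719). At 300 limma again called 0 of 7, beside 0.255% of all genes. Beside 7.62% of all genes, 2 of the 7 passed without adjustment. They were Akr1b1 with 0.55 (limma adjusted p = 0.647) and Impa2 with -0.41 (adjusted p = 0.591). With arrays weighted by quality Akr1b1 was called at both osmolalities (limma adjusted p = 0.0243 at 640 and 0.0449 at 300). That setting called 986 of 14506 genes at 640 and 1907 at 300. On centred arrays 3 of 7 fibroblast markers were called higher at 640 and 3 at 300, with a median log2 change of 1.13 at 640 and 1.07 at 300. Their part in the changes with time was not tested.

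Whether the response to osmolality differed between the times was tested as an interaction, the change at 48 h minus the change at 24 h. It called 0 of 7 genes, with 0% of all genes called. At an unadjusted p under 0.05 in limma the count was also 0 of 7, beside 0.441% of all genes. The largest differences were those of Slc5a3 (-0.61 ± 0.520 SE, 95% interval -1.72 to 0.51) and Isyna1 (-0.41 ± 0.448 SE, -1.37 to 0.54). For Akr1b1 it was -0.18 ± 0.290 SE (-0.80 to 0.44). The call at 48 h and its absence at 24 h are therefore not shown to be a difference between the times.

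Within each group the arrays varied in a shared way. Replicate 2 gave the lowest level of Nfat5, Akr1b1 and Slc5a3 relative to the array median in each of the 4 groups. Slc5a3 ordered the 3 arrays as Nfat5 did in 4 of 4 groups, and Akr1b1 in 2 of 4. The same order in all 4 groups was seen for 703 of 14505 other genes, or 4.85%. The labels do not state whether a replicate number marks a shared culture, and no cause of the shared order was tested. Over the 12 arrays Pearson's r was 0.96 between Akr1b1 and Slc5a3, 0.78 between Nfat5 and Slc5a3 and 0.77 between Nfat5 and Akr1b1, a description over arrays that share their groups and scale.

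**Figure D4:**
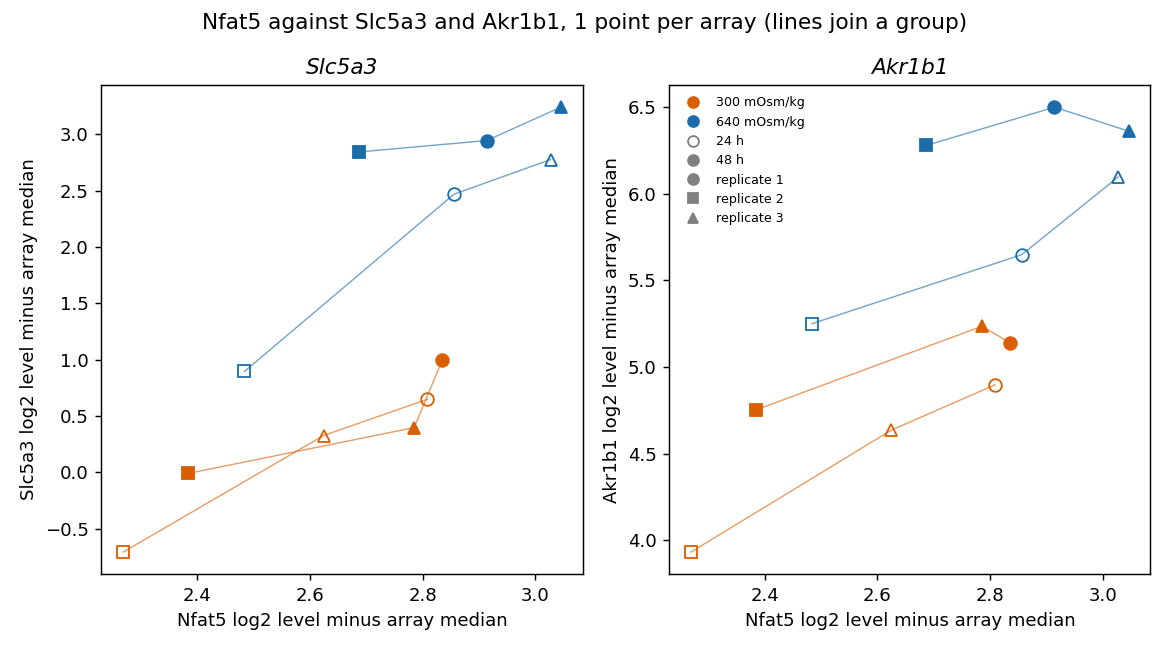
Log2 level of Slc5a3 (left) and Akr1b1 (right) against that of Nfat5, each minus the array median, with 1 point per array and lines joining the arrays of a group. The Nfat5 levels of the groups overlap, while at each time the 640 arrays lie above the 300 arrays for both genes; within each group Slc5a3 is ordered as Nfat5.

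The genes whose levels followed each of the 7 most closely over the 12 arrays were found by Pearson's r on centred values. Symbols starting with LOC, RGD, Olr, Vom or Mir were left out of this search. For Slc5a3 these were the heat shock chaperone Hsph1 (0.979), the kinase Prkcq (0.974) and Insig1, a regulator of sterol synthesis (0.973). For Akr1b1 they were Insig1 (0.969), Trim17 (0.968) and the kinase Sgk1 (0.967), so that Insig1 was in both sets. For Nfat5 they were the adenylate cyclase Adcy5 (0.968), the phospholipase Pla2g15 (0.967) and the acyltransferase Gpat3 (0.967). The closest for the others reached 0.955 for Isyna1 (Ube2z), 0.942 for Sord (Vps45), 0.938 for Impa1 (Six4) and 0.935 for Impa2 (Slc39a11). These values describe arrays that share their groups, and each is among the largest for its gene over the genes searched.

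Among the genes next to both branches no call was made on the deposited values, beside 0.0896% of all genes at 24 h and 0.717% at 48 h. Of 15 genes of polyol and hexose handling 13 were measured and 0 were called at either time, with a median log2 change of -0.04 at 48 h. The largest change was that of Akr1b8, an aldo-keto reductase related to Akr1b1, with log2 levels of 10.10 ± 0.336 at 300 and 11.24 ± 0.286 at 640 after 48 h (SD, n = 3 each). Its log2 change was -1.14 ± 0.266 SE (limma adjusted p = 0.0799), and it was called on centred arrays (adjusted p = 0.0080). Hk1, the hexokinase that phosphorylates glucose, stood at -0.65 on the log2 scale (limma adjusted p = 0.679, and 0.0319 after centring). Thus 2 of the 13 were called on centred arrays, beside 1.85% of all genes.

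Of 16 genes of inositol transport, breakdown and use, 14 were measured and 0 were called at either time, with a median of -0.08 at 48 h. Since 0.0896% of all genes were called at 24 h and 0.717% at 48 h, 0 calls do not set this list apart. Cds1, which makes the lipid precursor of phosphatidylinositol, had a log2 change of -0.49, and Cdipt, which joins that precursor to myo-inositol, one of -0.43 at 48 h (limma adjusted p = 1.00 for each). Slc2a13, the proton-coupled inositol carrier, and Slc5a11, a sodium-coupled relative of Slc5a3, had log2 changes of -0.33 and 0.01. Of these 3 inositol carriers Slc5a3 was the one called. The mean levels of Slc2a13 and Slc5a11 lay below the array medians in both 48 h groups. At 300 they were 5.47 for Slc2a13 and 4.43 for Slc5a11 on the log2 scale. Whether transcripts this dim could show a fall was not tested, so the contrast with Slc5a3 is not shown to be specific to that carrier.

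Of 16 kinases and cofactors described as acting on Nfat5, all 16 were measured and 0 were called at either time, with a median of -0.0026 at 48 h. Parp1, a DNA repair enzyme that binds Nfat5, had a log2 change of -0.72 (limma adjusted p = 0.492) and the kinase Fyn one of 0.49 (adjusted p = 1.00). Of the 4 calcium-regulated relatives of Nfat5, 3 were measured and 0 were called, with Nfatc3 at -0.24 and Nfatc4 at -0.01. Over all genes 0.0896% were called at 24 h and 0.717% at 48 h, so 0 calls do not set either list apart.

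Other genes described as targets of Nfat5 included further falls. Of 11 listed, 8 were measured, 5 were called lower at 48 h and 2 at 24 h, and all 8 were lower in value at each time. Of all genes 0.545% were called lower at 48 h and 0.0758% at 24 h, and 45.8% were lower in value at 48 h and 55.7% at 24 h. The median log2 change of the 8 was -1.88 at 48 h and -1.06 at 24 h. This list was drawn up with earlier results of these data known, so its direction is no independent evidence.

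S100a4, a calcium-binding protein, had log2 levels of 8.50 at 300 and 10.89 at 640 after 48 h, or 5.21-fold lower at 300 (log2 change -2.38, limma adjusted p = 0.000211). The urea transporter Slc14a2 fell by 2.54 on the log2 scale (adjusted p = 0.0136). Its call was lost when any 1 of the 6 arrays at 48 h was left out (adjusted p between 0.0598 and 0.0851). Hspa4l, an Hsp70-type chaperone named after its value was seen, was lower by 1.37 (adjusted p = 0.0154).

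The water channels Aqp2 and Aqp1 were the others called at 48 h, at -4.41 and -2.48, and they were the 2 called at 24 h, at -3.63 and -1.98. The 24 h call of Aqp1 was lost without replicate 1 at 640 (adjusted p = 0.0823) and in a fit of the 24 h arrays alone (0.652). Slc6a6, the taurine carrier, stood at -1.06 at 48 h (limma adjusted p = 0.120), and centring brought its adjusted p to 0.0202, while the amino acid carrier Slc38a2 and the chemokine Ccl2 had -0.34 and -0.22 without a call.

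**Figure D5:**
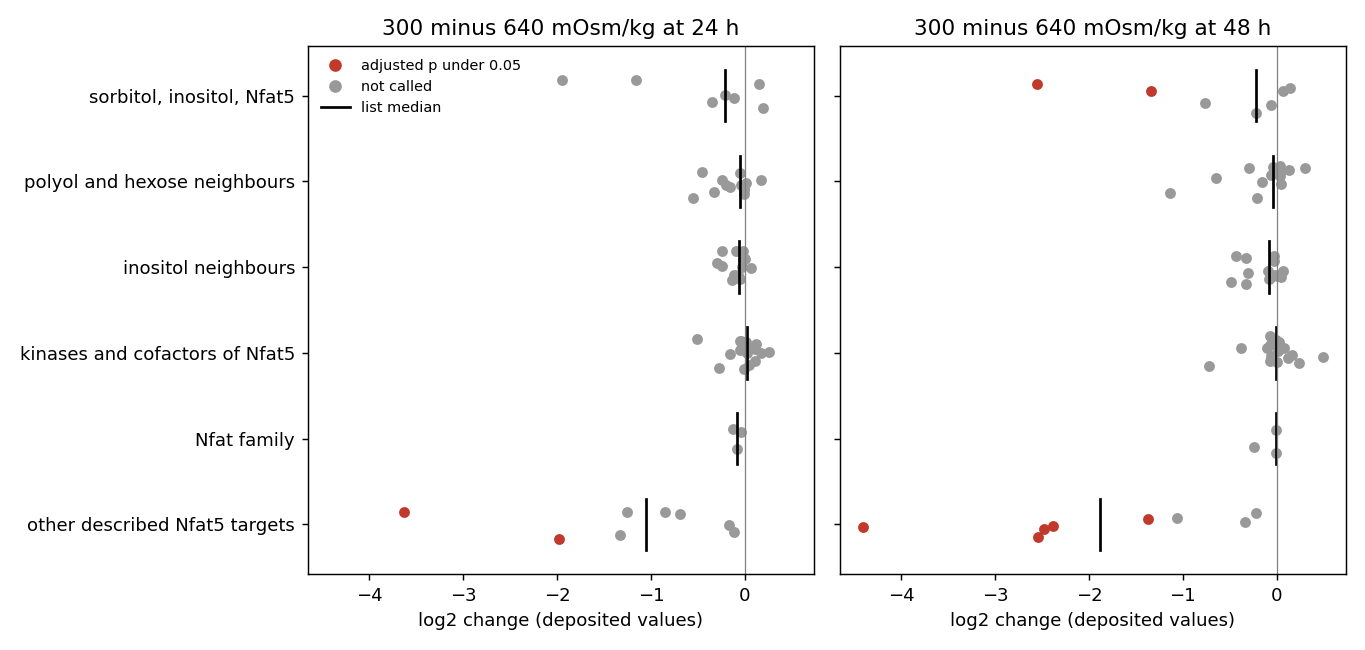
Log2 change, 300 minus 640 mOsm/kg (x axis), of every measured gene of 6 gene groups at 24 h (left) and 48 h (right), with called genes in red and the group median as a bar. The 2 called osmolyte genes and the 5 called targets of Nfat5 lie to the left at 48 h, while the neighbours of both branches, the kinases and cofactors and the Nfat family have medians near 0.

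All 12 principal cell markers were measured, and their mean level above the array median was 2.03 to 2.31 at 300 and 2.98 to 3.16 at 640 after 48 h, and 1.96 to 2.14 at 300 and 2.59 to 2.85 at 640 after 24 h. Of the 12, 4 were called lower at 48 h (Aqp2, Aqp3, Avpr2 and Slc14a2) and 1 at 24 h (Aqp2), while the epithelial genes Cdh1, Krt8 and Krt18 had log2 changes of 0.20, 0.41 and 0.42 at 48 h without a call. Of all genes 0.545% were called lower at 48 h and 0.0758% at 24 h. Aqp2 and Slc14a2 also belong to the listed targets of Nfat5, as does the limb marker Aqp1, so these counts share genes. The median log2 change of the 12 was -0.33 at 48 h and -0.38 at 24 h, beside 0.02 and -0.02 over all genes. Among the other markers not called, Krt19, an epithelial keratin, had -0.37 and the transcription factor Gata3 -0.49 at 48 h, and 9 of the 12 were lower in value at each time. Of 6 markers of the thick and thin limbs 5 were measured, at -1.04 to -0.82 at 300 and -0.07 to 0.27 at 640 after 48 h, and at -0.99 to -0.96 at 300 and -0.38 to -0.02 at 640 after 24 h. Aqp1 was the one called, and the defining gene Umod had log2 levels of 4.40 at 300 and 4.50 at 640 after 48 h. Slc12a1, the salt transporter of the thick limb, had a log2 change of -1.17 at 48 h (limma adjusted p = 0.0534), and on centred arrays it was called (adjusted p = 0.0074). Cldn10, a tight junction gene, had -1.01 (adjusted p = 0.616), and all 5 were lower in value at 48 h.

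Intercalated cell markers (6 of 6) lay between -2.23 and -2.01 and proximal tubule markers (5 of 6) between -1.93 and -1.71 in the 48 h groups. Fibroblast markers (7 of 7) lay between 0.55 and 1.12 at 300 and between 0.56 and 0.89 at 640 after 48 h. Endothelial markers (5 of 6) lay between -1.12 and -0.73 at 300 and between -0.71 and -0.20 at 640, and macrophage markers (7 of 7) between -0.96 and -0.62 at 300 and between -0.68 and -0.42 at 640. None of these 5 lists had a called gene at 48 h on the deposited values, beside 0.717% of all genes. On centred arrays Emcn (endothelium) and Csf1r (macrophage) were called lower, beside 1.85% of all genes called in either direction. The part of any cell type in the lower levels of Akr1b1 and Slc5a3 at 300 was not tested.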

How the data were processed

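Titles and treatment labels gave each array's group and replicate number. Codes in some descriptions name another osmolality for the 24 h samples at 300 and the 48 h samples at 640 and were not used. The authors' deposited log2 values came from RMA in Affymetrix Power Tools, per the submitters' processing notes, which give no versions. Probe intensities, detection calls and hybridisation batches were not used here. Since array medians differ, a shift of scale enters each gene's spread and every change over time.

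Of 27596 probe sets, 15310 had 1 symbol in the platform's gene table, 323 had several and 11963 had no name. Entrez identifiers of 15279 matched RefSeq, 31 did not, and 0 symbols were updated. Of the 14506 genes tested, 527 had several probe sets. No arrays were identical (highest correlation 0.995).

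All 12 arrays were fitted with 1 mean per group in limma 3.58.1 (lmFit, eBayes; R 4.3.3), on the deposited log2 values for 300 minus 640 and the interaction and on centred arrays for time. Errors of changes are moderated standard errors. The fit was tested on simulated data. Members and gene lists were chosen with earlier results of these data known. Named genes were the 7, up to 4 called genes per pathway list (or the 2 with the smallest p at 48 h), and those the text shows from the lists. Added to these were the 3 most correlated genes per member, leaving out LOC, RGD, Olr, Vom and Mir symbols. Alternatives changed scaling, filter, variance model, probe sets, arrays in the fit and the replicate block.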

Additional observations from a re-analysis of the deposited data

How the results depend on the processing

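Akr1b1 and Slc5a3 were called at 48 h under each of the 16 alternatives, and 2 genes of the 7 were called without any 1 array. At 24 h, 1 of the 7 was called with centred arrays, cyclic loess, quantile normalization, trended and robust eBayes or the mean of probe sets (Akr1b1), 2 with array weights (Akr1b1 and Slc5a3), and 0 to 1 without 1 array. Array weights called 1 (Akr1b1) for time at 640 and 1 at 300. Over all genes the 24 h count of 13 (2 higher, 11 lower) became 95 with centred arrays (40 higher, 55 lower), 98 with loess, 110 with quantile normalization, 139 with array weights, 3 with only the groups compared, 20 without the pair of arrays of low median, and 4 to 24 without 1 array. The 48 h count of 104 became 269, 304, 277, 415 and 217 under the first 5 of these, and 51 to 66 without 1 array. The interaction count of 0 became 4 with centred arrays, 2 with loess, 2 with quantile normalization, 1 with trended eBayes, 4 with array weights, 1 without the low pair, and 0 to 3 without 1 array. For time at 640 the count of 20 became 0 on deposited values, 986 with array weights, 34 without the low pair and 6 to 15 without 1 array. At 300 the count of 37 became 0, 1907, 219 and 7 to 38. The causes were not tested.

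Directions reversed for Nfatc3 at 24 h with array weights (0.029), Akr1b1 in the interaction with quantile normalization (0.046) and Slc5a3 over time at 300 on deposited values (-0.059). Without 1 array the 24 h ranges crossed 0 for Sord (-0.26 to 0.57), Impa1 (-0.42 to 0.19), Impa2 (-0.079 to 0.41), Cds1 (-0.21 to 0.069), Cdipt (-0.55 to 0.11), Nfatc3 (-0.50 to 0.25) and Nfatc4 (-0.36 to 0.12). At 48 h they did for Impa1 (-0.17 to 0.050), Impa2 (-0.091 to 0.18) and Nfatc4 (-0.11 to 0.12), and over time at 300 for Slc5a3 (-0.025 to 0.65). None of these was called in any setting.

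Equal replicate numbers were not shown to pair arrays, since deviations of same-numbered arrays correlated at -0.13, 0.84 and -0.21 at 24 h and at -0.23, 0.80 and -0.22 at 48 h for numbers 1, 2 and 3. Not every array correlated best with its own number: replicate 1 at 300 did so with replicate 3 at 640 (0.83 at 24 h and 0.78 at 48 h), and replicate 3 at 300 with replicate 1 at 640 (0.58 and 0.63). The replicate block joined equal numbers, so for numbers 1 and 3 it did not join the arrays that correlated best. The main fit joined no arrays, so variation shared between 300 and 640 arrays stayed in its error. With the replicate block, 1 of the 7 genes was called at 24 h (Slc5a3, adjusted p = 0.0126), 2 at 48 h (Akr1b1 and Slc5a3), and 35 genes over time at 640 and 92 at 300. The dimmer probe set of Akr1b1 was no longer called at 24 h with it (0.0634).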
